A study of Gossypium barbadense and Gossypium hirsutum with 8 samples.

Results

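The fibers of Gossypium barbadense and Gossypium hirsutum were compared at 15 days post anthesis (DPA), from the 2 libraries of that stage among the 8 of the series. Both cottons are cultivated tetraploids that carry an A and a D subgenome. G. hirsutum is upland cotton, and G. barbadense is grown for its longer and finer fiber. The series holds 1 library per species at 5, 10, 15 and 20 DPA, all from fiber. No cultivar, growing condition or number of plants is given, and no treatment is named. The last stage is 20 DPA in the sample descriptions and carries the number 25 in the sample titles. With 1 library on each side, no difference at 15 DPA has a replicate check, and ratios and counts of genes are given with no test. Each count covers these 2 libraries and does not separate the species from other differences between the libraries.

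A cotton fiber is a single cell of the seed coat. It elongates for weeks on a thin primary wall and then, in a transition phase, slows its growth and lays down a secondary wall of nearly pure cellulose. The genes used for elongation and those used for wall thickening follow each other in time, so a gene can differ between the species at a fixed age either through its level or through the age at which it is used. The comparison at 20 DPA was used to sort genes into those alike there and those still apart. It does not fully separate the cases, since a gene with little RNA left in both species at 20 DPA is alike either way.

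The table lists 59006 genes by identifiers of the G. hirsutum form, in which Gh_A06G0930 is a gene on chromosome A06 and Sca marks an unplaced scaffold. The files do not pair the identifiers with gene names, and 0 of them matched the 74561 genes of the G. barbadense reference table, so no function is given for any gene and the fiber label could not be checked against marker genes. Values are RPKM, read numbers scaled to gene length and library size. At 15 DPA the listed genes summed to 380030 RPKM for G. barbadense and to 252850 RPKM for G. hirsutum, a ratio of 1.503. The smallest steps between low values put the library size behind the G. hirsutum column at 1.03 times that behind the G. barbadense column, so 1 read was worth nearly the same RPKM in both. Values are therefore given as deposited and as rescaled RPKM, in which each library is divided by its sum and multiplied by 300000. At 15 DPA 19140 genes in G. barbadense and 14607 in G. hirsutum were at 1 RPKM or more as deposited, and 16931 and 15809 after rescaling. In G. barbadense 35.1% of the summed RPKM came from the 100 most abundant genes, and in G. hirsutum 37.9%.

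At 15 DPA the fibers differed widely, and more genes were far higher in G. barbadense than in G. hirsutum. A gene was called apart when log2(value + 1) differed by at least 2, a 4-fold difference on that scale, and the higher library was at 5 or more. After rescaling, 1564 of 8575 genes at 5 or more in either library (18.2%) were apart with G. barbadense higher, and 962 (11.2%) with G. hirsutum higher. As deposited the numbers were 2317 (26.1%) and 507 (5.71%) of 8873 genes, and with median-of-ratios factors (each library divided by its median ratio to the mean library) 1923 (22.8%) and 621 (7.37%) of 8426. G. barbadense was thus the higher species in 61.9% of the genes apart after rescaling, in 82.0% as deposited and in 75.6% with median-of-ratios factors. The median gene itself was 0.58 higher in G. barbadense on the log2 scale as deposited, 0.29 higher with median-of-ratios factors and 0.23 lower after rescaling (-0.23). After differences were centred on that median gene, which was tried after the data were seen, 1760 genes were apart towards G. barbadense and 745 towards G. hirsutum. At a 2-fold threshold the excess towards G. barbadense was absent after rescaling, with 2467 genes against 2582. All 1564 genes higher in G. barbadense after rescaling were also apart as deposited, and 507 of the 962 higher in G. hirsutum were.

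The larger differences lay mostly on the G. barbadense side. The genes apart had a median difference of 2.89 on the log2 scale where G. barbadense was higher and of 2.51 where G. hirsutum was higher. A difference of 16-fold or more was seen in 232 genes towards G. barbadense and in 52 towards G. hirsutum. Of the genes apart, 377 higher in G. barbadense were listed at 0 in G. hirsutum at 15 DPA, and 101 higher in G. hirsutum were listed at 0 in G. barbadense. Zeros at 15 DPA were also more frequent in G. hirsutum over all 59006 listed genes, with 23762 against 15685 in G. barbadense. In 18 of the 377 and 32 of the 101 genes the other species was at 0 at all 4 stages. A G. barbadense copy that departs from the G. hirsutum identifier could also give a 0 in G. barbadense, and its part was not tested. The genes next to the threshold after rescaling stood at 6.37 and 0.842 just inside and at 6.64 and 0.914 just outside, in G. barbadense and G. hirsutum. Within 0.1 of the threshold lay 160 genes on the G. barbadense side and 212 on the G. hirsutum side.

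In share of RNA the difference was also larger towards G. barbadense. The 1564 genes higher there took 23.3% of its summed RPKM at 15 DPA and 1.93% of that of G. hirsutum. The 962 genes higher in G. hirsutum took 8.55% and 1.01%. These shares describe genes chosen by the same values. At 20 DPA, which did not choose them, the first set took 8.82% of the G. barbadense and 3.81% of the G. hirsutum sum. The other set took 6.73% of the G. hirsutum and 4.15% of the G. barbadense sum. Abundant genes weigh most in such sums. At 20 DPA the median gene of the first set was at 0.699 in G. barbadense and 0.744 in G. hirsutum after rescaling. That of the other set was at 1.86 in G. barbadense and 4.41 in G. hirsutum.

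Genes apart were found at all levels. After rescaling, 27.2% of the genes at 5 to 10 in the higher library were apart, 32.2% at 10 to 20, 31.4% at 20 to 50, 31.3% at 50 to 100 and 24.8% at 100 to 1000. Of the 27 genes at 1000 or more, 7 were apart, all towards G. barbadense. Among the genes at 100 to 1000, 96 were apart towards G. barbadense and 36 towards G. hirsutum.

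The largest differences in amount concerned identifiers of very different abundance in the 2 directions. At 15 DPA Gh_A09G1166 on chromosome A09 was at 5696 RPKM (G. barbadense) against 223 RPKM (G. hirsutum), 4497 and 265 after rescaling. Gh_D09G1172 on chromosome D09 stood at 5658 and 222 RPKM, 4467 and 264 after rescaling. The ratio was 25.6-fold as deposited and 17.0-fold after rescaling for the A09 gene, and 25.5-fold and 16.9-fold for the D09 gene. Both stayed higher in G. barbadense at 20 DPA, by 3.27-fold and 3.37-fold after rescaling, and so fell in neither main class below. How the authors treated reads that fit several genes is not given, so the near-equal levels of this A and D identifier may not be separate measurements. On the other side, Gh_D05G3933 stood at 417 RPKM in G. hirsutum and 52.9 RPKM in G. barbadense, 495 and 41.8 after rescaling, an 11.9-fold ratio. At 20 DPA its rescaled levels were 77.2 in G. hirsutum and 76.3 in G. barbadense, 1.01-fold apart. Gh_A05G3996 stood at 398 and 24.5 RPKM at 15 DPA (24.4-fold after rescaling) and was 2.07-fold higher in G. hirsutum at 20 DPA.

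Set against all stages of the other species, the G. barbadense library of 15 DPA was most like the G. hirsutum library of 10 DPA. After rescaling, 14.7% of genes at 5 or more in either library were 4-fold apart between those libraries (1212 genes), against 26.4% for G. hirsutum at 5 DPA, 29.5% at 15 DPA and 36.8% at 20 DPA. The median absolute difference on the log2 scale, over 14386 genes at 5 or more in any library, was 0.70 to G. hirsutum at 10 DPA and 0.96 to G. hirsutum at 15 DPA. Across genes, which are not independent replicates, Pearson's r was 0.77 and 0.62 for these pairs.

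The G. hirsutum library of 15 DPA was, in turn, most like the G. barbadense library of 20 DPA. Between those libraries 26.1% of genes were 4-fold apart, against 29.5% for G. barbadense at 15 DPA, 35.6% at 10 DPA and 39.6% at 5 DPA. The median absolute difference was 0.79 to G. barbadense at 20 DPA and 0.96 at 15 DPA, and Pearson's r was 0.72 and 0.62. Both orders, nearest at 10 DPA and nearest at 20 DPA, held as deposited and with median-of-ratios factors. As deposited the shares for the nearest libraries were 14.6% and 24.0%, and with median-of-ratios factors 14.5% and 24.4%. Within a species, G. barbadense at 15 DPA had 6.66% of genes 4-fold apart from 10 DPA and 35.7% from 20 DPA. G. hirsutum at 15 DPA had 13.2% apart from 10 DPA and 19.7% from 20 DPA.

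**Figure D1:**
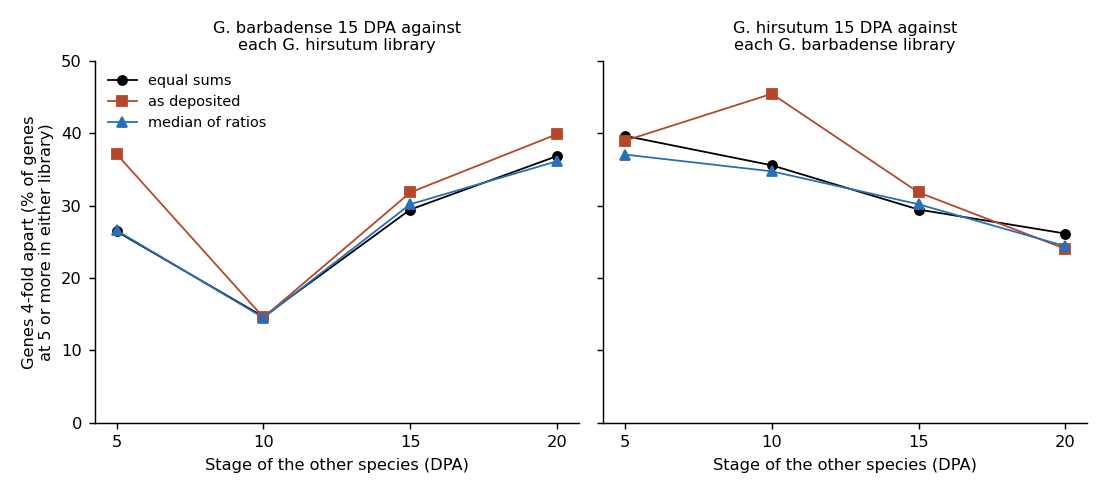
Share of genes 4-fold apart (y axis, percent of genes at 5 or more in either library) between each 15 DPA library and the 4 libraries of the other species (x axis, DPA), under 3 scalings, 1 library per point. The G. barbadense library is closest to G. hirsutum at 10 DPA (14.7% after rescaling to equal sums), and the G. hirsutum library is closest to G. barbadense at 20 DPA (26.1%).

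The genes higher in G. barbadense at 15 DPA were mostly alike in the species at 20 DPA. Alike means under 2-fold apart on the log2(value + 1) scale, and still apart means at least 4-fold the same way with 5 or more in the higher library. Of the 1564 genes, 1239 (79.2%) were alike at 20 DPA, 35 (2.24%) were still apart, 147 (9.40%) had turned round by 2-fold or more, and 143 lay in between. As deposited, 1811 of 2317 (78.2%) were alike and 49 (2.11%) still apart. For scale, 80.0% of the 6049 genes that reached 5 at 15 DPA and were not apart there were also alike at 20 DPA. The share alike was thus no higher than among other genes, but the sets are unlike. Genes under 1 in both libraries at 20 DPA count as alike, and they numbered 726 of the 1564 genes and 373 of the 6049. The near-equal shares therefore do not compare genes with RNA left at 20 DPA.

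Of the genes higher in G. hirsutum at 15 DPA a larger share was still apart at 20 DPA, a difference of shares for which no test applies. Of the 962 genes, 602 (62.6%) were alike at 20 DPA, 107 (11.1%) still apart, 35 (3.64%) turned round and 218 in between. As deposited, 282 of 507 (55.6%) were alike and 74 (14.6%) still apart. All 35 genes still apart towards G. barbadense after rescaling were in that class as deposited too, as were 74 of the 107 towards G. hirsutum. The background at 20 DPA leaned the same way, since of the 5752 genes at 5 or more there 1.95% were 4-fold apart towards G. barbadense and 6.66% towards G. hirsutum (2.27% and 6.06% as deposited).

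These shares include genes with little RNA left at 20 DPA. Both libraries were under 1 at 20 DPA for 726 of the 1564 genes higher in G. barbadense and for 146 of the 962 genes higher in G. hirsutum, and such genes count as alike. Among genes at 5 or more in either library at 20 DPA, 149 of 279 (53.4%) were alike and 35 (12.5%) still apart where G. barbadense had been higher. Where G. hirsutum had been higher, 236 of 472 were alike and 107 (22.7%) still apart. Of the genes not apart at 15 DPA, 3.93% of those at 5 or more at 20 DPA were 4-fold apart there in either direction. The genes apart at 15 DPA were chosen on single libraries. A chance high or low value there would also place a gene among those alike at 20 DPA. Without replicates its part was not tested.

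**Figure D2:**
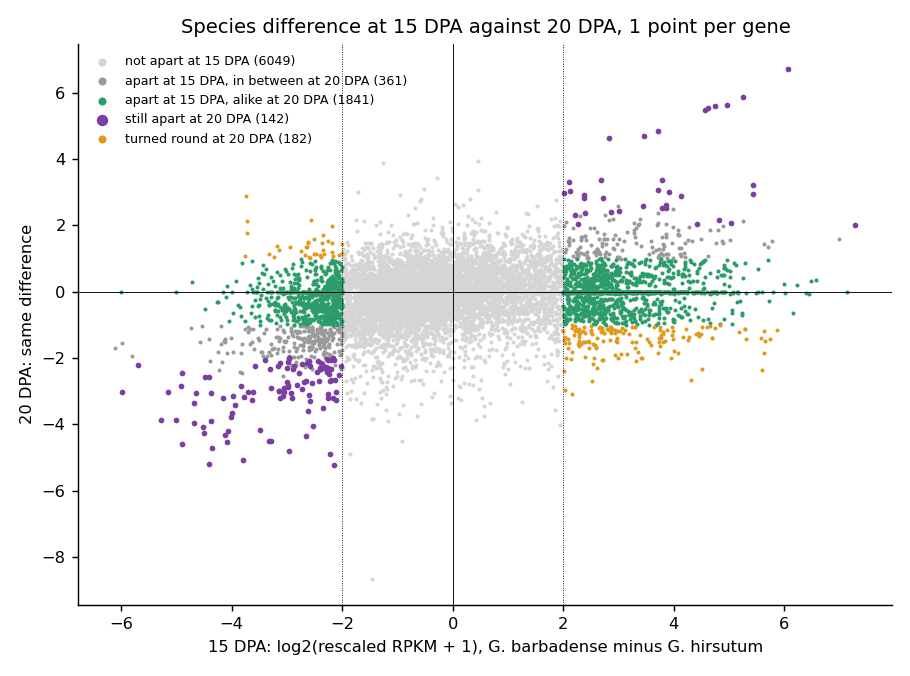
Species difference at 15 DPA (x axis) against 20 DPA (y axis), each as G. barbadense minus G. hirsutum in log2(rescaled RPKM + 1), for 8575 genes at 5 or more in either 15 DPA library. Green points, apart at 15 DPA and alike at 20 DPA, number 1841, and purple points, still apart, 142, of which 107 lie on the G. hirsutum side.

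The genes alike at 20 DPA mostly settled low, whichever species had been higher. They were split by whether the mean of the species at 20 DPA lay below or above the midpoint of the species at 15 DPA. Where G. barbadense had been higher, 1187 of the 1239 genes settled low, at the level G. hirsutum already had at 15 DPA. From 5 to 20 DPA, the median rescaled RPKM of these genes was 10.04, 16.03, 12.4 and 0.490 for G. barbadense. For G. hirsutum the median was 3.32, 4.95, 0.676 and 0.563. The choice of these genes fixed the low level in G. hirsutum at 15 DPA and in G. barbadense at 20 DPA. The levels at 5 and 10 DPA did not choose them. G. hirsutum had earlier stood at or above the midpoint, at 5 or 10 DPA, in 850 of the 1187 genes (71.6%, and 61.8% as deposited). In the remaining 337 genes it was below the midpoint at both earlier stages, with a median of 1.73 at 10 DPA against 11.1 for G. barbadense. Together the 1187 genes made up 12.3% of the G. barbadense sum at 15 DPA and 1.19% at 20 DPA, against 0.978% and 1.04% of the G. hirsutum sum.

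Gh_D13G1994 and Gh_D13G0615, on chromosome D13, had the largest differences among them. From 5 to 20 DPA, G. barbadense had Gh_D13G1994 at 84.9, 292, 176 and 0 RPKM, and G. hirsutum had it at 2.12, 46.6, 0 and 0 RPKM (139 against 0 at 15 DPA after rescaling). It was abundant in G. barbadense at the first 3 stages, and in G. hirsutum its highest value was that of 10 DPA. For Gh_D13G0615 the values were 33.0, 224, 119 and 2.71 RPKM for G. barbadense and 29.7, 61.0, 0 and 1.75 RPKM for G. hirsutum (94.2 against 0 at 15 DPA after rescaling). Both species had it at 5 and 10 DPA, and it was listed at 0 in G. hirsutum at 15 DPA.

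Where G. hirsutum had been higher, 409 of the 602 genes alike at 20 DPA settled low and 193 settled high. Settling high was thus seen in 20.1% of the 962 genes higher in G. hirsutum and in 3.32% of the 1564 genes higher in G. barbadense (52 genes). The shares were 16.8% and 4.40% as deposited and 24.0% and 5.93% with median-of-ratios factors. In numbers the order turned as deposited, with 85 genes against 102. The 193 genes had a median rescaled RPKM of 1.70 in G. barbadense at 15 DPA and 9.47 at 20 DPA, against 14.4 and 11.2 in G. hirsutum. They took 0.260% of the summed RPKM of G. barbadense at 15 DPA and 2.58% at 20 DPA, and 1.69% and 3.42% in G. hirsutum. For 34 of the 193 genes G. hirsutum itself had been below the midpoint at 5 and 10 DPA, and their median rescaled RPKM from 5 to 20 DPA was 1.74, 2.92, 13.2 and 10.5 there against 1.37, 1.28, 1.36 and 9.01 in G. barbadense. The choice of these genes fixed the high level at 15 and 20 DPA in G. hirsutum and at 20 DPA in G. barbadense. In the other 159 genes G. hirsutum had been at or above the midpoint before 15 DPA.

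Gh_D04G1562 on chromosome D04 was among the 34 genes in which G. hirsutum had been below the midpoint at 5 and 10 DPA. In G. barbadense it stood at 0, 1.31, 0.26 and 269 RPKM at the 4 stages, and in G. hirsutum at 0.26, 2.06, 10.7 and 327 RPKM. At 15 DPA the ratio was 41.2-fold as deposited and 62.0-fold after rescaling, resting on at least 41 reads in G. hirsutum and at least 1 read in G. barbadense by the steps of its low values, and at 20 DPA it was 1.32-fold. Gh_D03G1071 on chromosome D03 was at 0.68 RPKM (G. barbadense) against 14.7 RPKM (G. hirsutum) at 15 DPA, and at 4.80 against 8.13 RPKM at 20 DPA. At 10 DPA the values had been 8.22 and 4.04 RPKM, so G. barbadense had more of it at 10 and 20 DPA than at 15 DPA. At 5 DPA it was listed at 0 in both species.

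The 409 genes higher in G. hirsutum that settled low differed in course from their G. barbadense counterparts. Their median rescaled RPKM in G. hirsutum was 5.43, 4.28, 10.1 and 1.52 at the 4 stages, highest at 15 DPA. In G. barbadense it was 2.19, 1.68, 0.797 and 1.08. The choice of these genes fixed the high level in G. hirsutum and the low level in G. barbadense at 15 DPA. It also fixed the low levels at 20 DPA, so the highest G. hirsutum median at 15 DPA is partly set by the choice. The levels at 5 and 10 DPA did not choose these genes. G. barbadense had stood at or above the midpoint at 5 or 10 DPA in 150 of them (36.7%, and 36.5% as deposited), against the 71.6% found for G. hirsutum in the opposite set. Gh_A01G0338 on chromosome A01 was listed at 53.4 RPKM in G. hirsutum at 15 DPA and at 0 in the other 7 libraries. It is 1 of 4 genes apart at 15 DPA that were above 0 in a single library, and with no other value the number of reads behind it cannot be read from the steps. Gh_D05G2284 on chromosome D05 was at 20.6, 1.80, 34.1 and 0 RPKM from 5 to 20 DPA in G. hirsutum, while every G. barbadense library had 0.37 RPKM or less, a 139-fold ratio at 15 DPA after rescaling and 92.3-fold as deposited.

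Few genes settled high after being higher in G. barbadense. The 52 genes had a median rescaled RPKM of 7.46, 10.1 and 5.77 in G. barbadense at 10, 15 and 20 DPA. In G. hirsutum the median was 3.62, 0.700 and 6.62. The choice of these genes fixed the G. hirsutum level at 15 DPA as low and below that of 20 DPA. The level at 10 DPA did not choose them. Gh_Sca154451G01, on an unplaced scaffold, was at 33.0 RPKM (G. barbadense) against 0.78 RPKM (G. hirsutum) at 15 DPA, while G. hirsutum had 25.4 RPKM at 10 DPA and 9.57 RPKM at 20 DPA. For Gh_A02G1340 on chromosome A02 the values from 5 to 20 DPA were 20.8, 0, 22.1 and 6.73 RPKM for G. barbadense and 0.97, 3.78, 0 and 3.26 RPKM for G. hirsutum. In both genes the G. hirsutum value at 15 DPA was below that of 10 DPA, and the choice of the class placed it below that of 20 DPA.

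**Figure D3:**
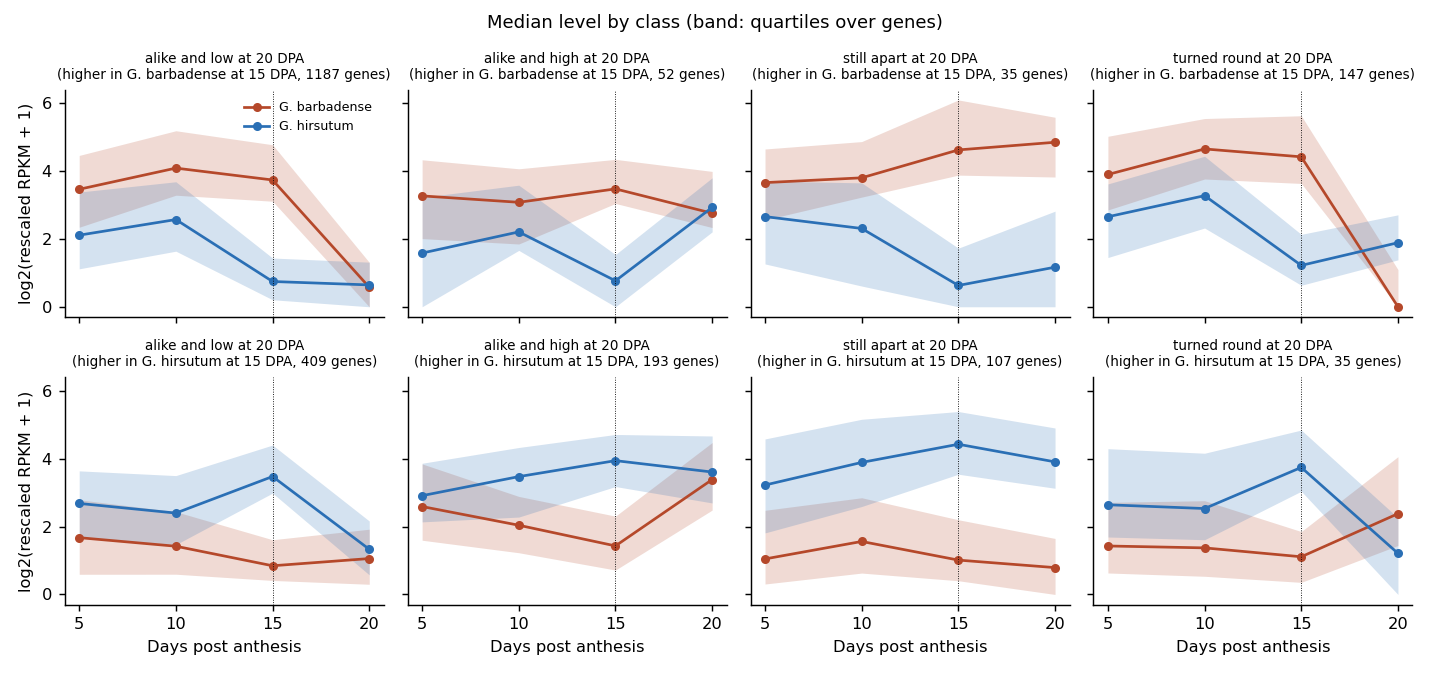
Median log2(rescaled RPKM + 1) over the genes of each class (points and lines, bands from the lower to the upper quartile over genes) against days post anthesis, by the species that was higher at 15 DPA (rows). The 1187 genes higher in G. barbadense that settled low have a low G. hirsutum median from 15 DPA. Their G. barbadense median is low from 20 DPA. In the 193 genes higher in G. hirsutum that settled high the G. barbadense median meets that of G. hirsutum at 20 DPA. The choice of the classes fixed these levels at 15 and 20 DPA.

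The 142 genes still apart at 20 DPA made up 5.62% of the 2526 genes apart at 15 DPA. The 35 higher in G. barbadense had a median rescaled RPKM of 23.7 at 15 DPA and 27.9 at 20 DPA there, against 0.546 and 1.25 in G. hirsutum. Their difference was already 4-fold the same way in 17 genes at 10 DPA and in 10 genes at 5 DPA, and in 4 genes at both. The 107 higher in G. hirsutum stood at a median of 20.5 and 14.03 there, against 1.02 and 0.731 in G. barbadense. They were 4-fold apart the same way in 42 genes at 10 DPA and in 43 at 5 DPA, and in 25 at both. As deposited the counts at 5 DPA were 19 of 49 genes towards G. barbadense and 19 of 74 towards G. hirsutum. Which class was more often apart at 5 DPA thus depended on the scaling. The choice of the class fixed the direction at 15 and 20 DPA, and the counts at 5 and 10 DPA come from libraries that did not choose it. Over all genes apart at 15 DPA, 448 of the 1564 higher in G. barbadense were 4-fold higher there at 10 DPA and 11 were 4-fold lower. Of the 962 higher in G. hirsutum, 195 were 4-fold higher there at 10 DPA and 0 were 4-fold lower. At 5 DPA 465 of the 1564 genes were 4-fold apart the same way and 48 the opposite way, and of the 962 genes 205 and 30. The share of all genes 4-fold apart at 5 or 10 DPA was not counted, so these counts cannot be set against it.

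Gh_A06G0930 and Gh_D13G1380 were the largest of the lasting differences towards G. barbadense. At 15 DPA Gh_A06G0930 on chromosome A06 was at 197 RPKM in G. barbadense (155 after rescaling, with at least 668 reads) and listed at 0 in G. hirsutum. At 20 DPA the values were 50.2 and 10.7 RPKM. Its ratio at 20 DPA was 4.31-fold after rescaling, close to the limit of the class. From 15 to 20 DPA its rescaled value went from 155 to 46.5 in G. barbadense and from 0 to 10.8 in G. hirsutum. Gh_D13G1380 on chromosome D13 stood at 2.69, 50.7, 83.5 and 111 RPKM in G. barbadense. G. hirsutum had 13.8 RPKM of it at 5 DPA and 0 at the other 3 stages, so the species that was higher at 5 DPA was not the one that was higher later.

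On the G. hirsutum side, Gh_D04G0857 on chromosome D04 was at 21.3, 8.47, 52.6 and 17.3 RPKM from 5 to 20 DPA, against 2.31, 0, 0 and 1.37 RPKM in G. barbadense. It was higher in G. hirsutum at all 4 stages. Gh_A02G0058 on chromosome A02 was at 0, 1.99, 43.1 and 5.14 RPKM in G. hirsutum, with 0.40 RPKM or less in every G. barbadense library. After rescaling the G. hirsutum value at 15 DPA was 62.4 for Gh_D04G0857 and 51.1 for Gh_A02G0058, against 0 in G. barbadense for both. The ratio at 20 DPA was 13.7-fold and 15.96-fold, with at least 1 read in G. barbadense for each gene. On the log2(value + 1) scale the difference at 20 DPA was -3.02 for Gh_D04G0857 and -2.22 for Gh_A02G0058. Gh_A02G0058, at 5.17 in G. hirsutum after rescaling, was thus close to both limits of the class.

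Of the 1564 genes higher in G. barbadense at 15 DPA, 147 (9.40%) turned round. Of the 962 higher in G. hirsutum, 35 (3.64%) did. At 20 DPA 9 and 2 of them were 4-fold apart the other way. The background at 20 DPA leaned to G. hirsutum. Of the 5752 genes at 5 or more there, 6.66% were 4-fold apart that way and 1.95% towards G. barbadense. Such a share at 2-fold was not counted. The 147 genes had a median rescaled RPKM of 24.2, 20.4 and 0 in G. barbadense at 10, 15 and 20 DPA and of 8.69, 1.33 and 2.70 in G. hirsutum. Gh_D01G2324 on chromosome D01 was at 126 RPKM (G. barbadense) against 0.75 RPKM (G. hirsutum) at 15 DPA, and at 4.02 against 11.7 RPKM at 20 DPA. Both libraries of 20 DPA were under 5 in 107 of the 147 genes and 19 of the 35.

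**Figure D4:**
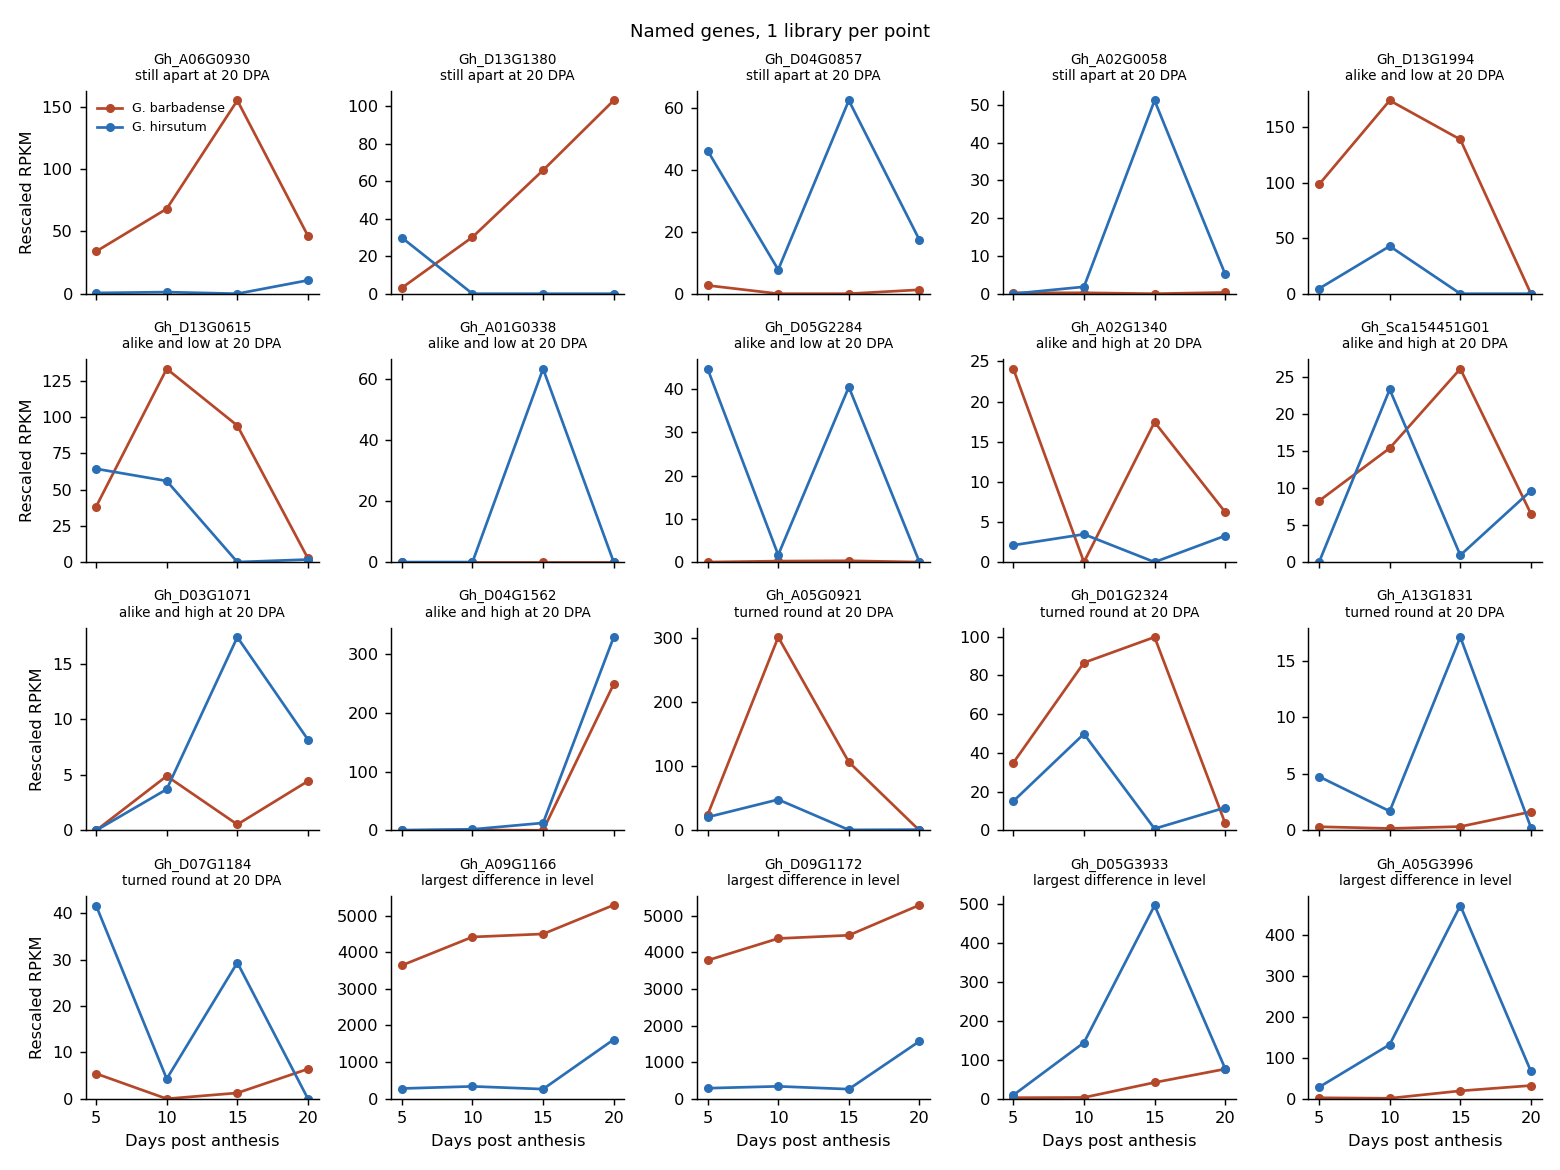
Rescaled RPKM (y axis, own scale for each gene) of the 20 named genes against days post anthesis, 1 library per point, with the class of each gene in its title. Gh_A06G0930 is at 155 (G. barbadense) and 0 (G. hirsutum) at 15 DPA, and Gh_D04G1562 reaches 249 and 329 in both species at 20 DPA after standing at 0.205 and 12.7 at 15 DPA.

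By position, the genes apart at 15 DPA lay on every chromosome and were more frequent on unplaced scaffolds. After rescaling, 29.0% of the 3992 genes on A chromosomes, 28.7% of the 4178 on D chromosomes and 42.7% of the 405 on scaffolds were apart. Scaffold genes were more often apart in both directions, 27.4% higher in G. barbadense and 15.3% higher in G. hirsutum. As deposited the shares apart were 31.3%, 31.0% and 45.2%. Among chromosomes the share ran from 24.4% on A03 to 35.8% on D13 after rescaling.

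Chromosomes of the same number in the A and D subgenomes had like shares in some pairs and not in others. On A13 and D13 35.5% and 35.8% of genes were apart, on A08 and D08 34.6% in both, on A05 and D05 24.5% and 25.9%, and on A11 and D11 24.6% and 26.4%. Wider apart were A04 and D04, at 32.0% and 26.6%, and A02 and D02, at 30.8% and 25.3%. Over the 13 same-numbered pairs Pearson's r of the share apart was 0.76 after rescaling, 0.61 as deposited and 0.52 with median-of-ratios factors, as a description. Copies of a gene in the subgenomes may share reads, and the part of such sharing was not tested.

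Genes with consecutive identifiers were compared for shared direction, as a description. Among 1235 consecutive pairs with both genes at 5 or more after rescaling, 19.1% of the pair members were apart with G. barbadense higher. Of those members, 27.9% had a partner that was apart in the same direction. Towards G. hirsutum the numbers were 10.0% and 8.87%. As deposited they were 26.2% and 34.4% towards G. barbadense and 4.58% and 5.04% towards G. hirsutum. There was 1 run of 4 consecutive identifiers and 3 runs of 3, all higher in G. barbadense.

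**Figure D5:**
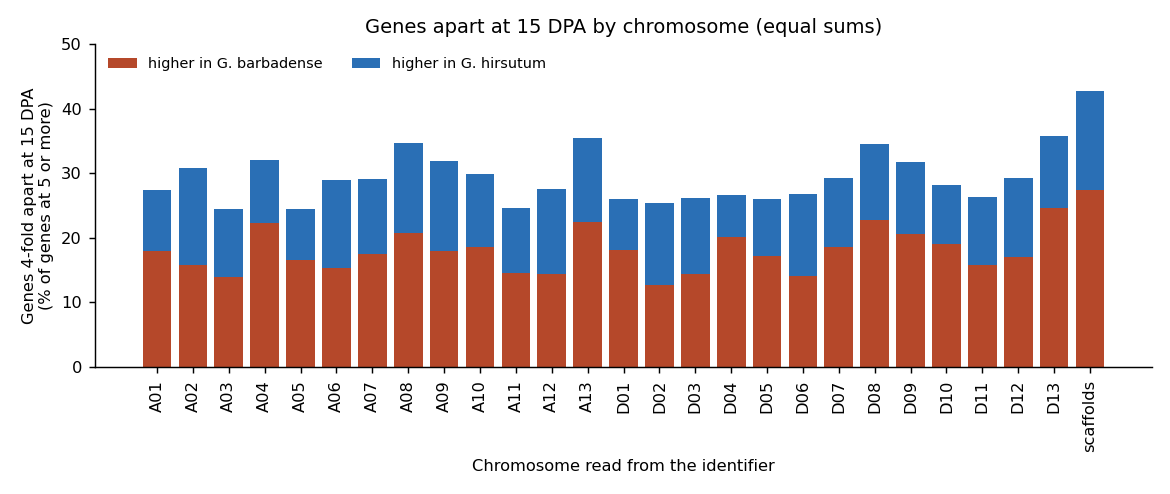
Share of genes 4-fold apart at 15 DPA (y axis, percent of the genes at 5 or more in either library after rescaling) by chromosome read from the identifier (x axis), stacked by the higher species. The total runs from 24.4% on A03 to 35.8% on D13, with 42.7% on unplaced scaffolds.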

How the data were processed

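Total RNA of fibers was sequenced with Illumina protocols, per the labels' protocols, in 8 libraries. The deposited RPKM were made by the authors, using cutadapt, edgeR and Bowtie2 per the submitters' processing notes, which state neither versions nor steps. The genome build, annotation and handling of multiply mapping reads were not given in the sources used here. Depth was read from the steps of values between 0.4 and 3 RPKM, where the commonest ratio between libraries gives their relative library size, and total reads are unknown. Least read numbers come from a gene's smallest value above 0 and cover counting only.

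Columns were matched by title. Each was divided by its sum and multiplied by 300000, and log2 differences used a pseudocount of 1, so changes of low genes are understated. Median-of-ratios factors came from 15529 genes. In each class and direction the 2 genes with the largest difference in the same class under both scalings were named, and over all genes apart the 2 with the largest difference in amount. Lists of fiber genes could not be matched to identifiers. Classes and rules were chosen with earlier results of these data known. The classification was run on simulated data with differences well above the threshold, counting noise only and equal scaling. That run checked the code and does not show how reliable the classes are in these libraries. Python 3.11.15, pandas 2.3.3 and numpy 2.4.6 were used.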

Additional observations from a re-analysis of the deposited data

Results flagged for a closer look

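The species difference pointed one way at 15 DPA and the other way at 20 DPA in the 4 named genes that turned round, on the log2(rescaled RPKM + 1) scale as G. barbadense minus G. hirsutum. With 1 library per species and stage this change of direction was not tested. Gh_A05G0921 went from 5.87 to -1.17 (135 against 0.71 RPKM as deposited at 15 DPA, and 0 against 1.24 RPKM at 20 DPA). Gh_D01G2324 went from 5.74 to -1.44. Gh_A13G1831 went from -3.75 to 1.08, with 1.78 and 0.25 RPKM at 20 DPA. Gh_D07G1184 went from -3.75 to 2.89 and was listed at 0 in G. hirsutum at 20 DPA, against 6.95 RPKM in G. barbadense. The reads behind the values at 20 DPA are known only as lower limits. The least read numbers there, G. barbadense first, were 0 and 1 for Gh_A05G0921 and 5 and 17 for Gh_D01G2324. For Gh_A13G1831 they were 6 and 1, and for Gh_D07G1184 4 and 0.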

How the results depend on the processing

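No paired analysis was possible because each species and stage has 1 library, and no library could be left out of a comparison of 2. Values without replicates limit every count here. As deposited the genes higher in G. hirsutum at 15 DPA numbered 507 (282 alike at 20 DPA), and with median-of-ratios factors 621 (346 alike), with 56 genes still apart towards G. barbadense. With no minimum level 56 were still apart towards G. barbadense. At a minimum of 20 the genes apart, alike and still apart were 557, 387 and 16 towards G. barbadense and 308, 171 and 31 towards G. hirsutum. With a 2-fold threshold they were 2467, 1936 and 179 against 2582, 1839 and 433, and with an 8-fold threshold 687, 520 and 12 against 228, 111 and 34. By construction, a minimum level changes which genes can be called and a fold threshold how many of them are. For the scalings the cause was not tested. Counts with a pseudocount of 0.1, with bands of 1.5-fold and 3-fold for alike genes, after centring, and of genes apart between the libraries of different stages stayed within 1.5 times the values reported. Of 60 values of the 20 named genes under other scalings or pseudocount, 0 changed sign and 12 moved by 1 or more on the log2 scale.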
